A study of Mus musculus with 14 samples.

Results

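Fezf2 is a zinc-finger transcription factor that is needed for corticospinal and other subcerebral projection neurons to form. The genes described here are Fezf2 and 9 genes commonly used as markers of such neurons: Bcl11b, Crym, Ldb2, Pcp4, Cntn6, Crim1, S100a10, Bhlhe22 and Kcnk2. They were chosen by name, with earlier results of these data known, as every probe set annotated to exactly 1 of these 10 symbols. Probe sets were found for 9 of the 10, among 18193 symbols in all, and Bhlhe22 was not analysed here. The 9 genes have 17 probe sets, of which 16 lay above the dim level of 4 (log2) in at least 3 of the 14 arrays and were tested.

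Corticospinal neurons lie in layer V of the neocortex and send their axons to the spinal cord. Fezf2 is expressed in cortical progenitors and is kept on in these neurons, where it acts largely upstream of Bcl11b, a second zinc-finger factor that is needed for their axons to extend. Projection neurons of the upper layers and callosal neurons hold both genes low, and many of the other genes named here serve as markers because they distinguish corticospinal from callosal neurons.

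The samples were CD1 mouse embryos whose ventricular lining was electroporated in the uterus at E14.5, a stage at which upper-layer neurons are mainly being made. The plasmid carried Fezf2 together with GFP (Fezf2GFP) or GFP alone (CtrlGFP), and the GFP-bearing cells of the cortex were sorted 24 h or 48 h later. There were 3 arrays of CtrlGFP and 3 of Fezf2GFP at 24 h, and 4 of each at 48 h. No group was left without surgery and DNA, no gene was deleted in any group, and the embryos or litters behind each array are not stated in the labels, so the spread between arrays, on which each p-value rests, may be technical. The comparisons ask which of the marker genes differ after Fezf2GFP at each time, and which differ between the times.

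The vector comparisons turn on Fezf2, Bcl11b and Cntn6, whose promoters are printed here from RefSeq on build GRCm38.p6 (6 of the 10 genes have an entry in the table used). Each runs 5′ to 3′ on the gene's strand, from 250 bases before to 50 bases after the transcript start. Capitals mark matches, on either strand, to 4 motifs. The letters searched were TATAAA for the TATA box and GGGCGG for the GC box, 5′ to 3′. The CCAAT box was searched by the letters of its name and the E-box as CANNTG. Fezf2 lies at chr14:12345816-12346115 on the minus strand, Bcl11b at chr12:108003365-108003664 on the minus strand and Cntn6 at chr6:104492794-104493093 on the plus strand.
Fezf2: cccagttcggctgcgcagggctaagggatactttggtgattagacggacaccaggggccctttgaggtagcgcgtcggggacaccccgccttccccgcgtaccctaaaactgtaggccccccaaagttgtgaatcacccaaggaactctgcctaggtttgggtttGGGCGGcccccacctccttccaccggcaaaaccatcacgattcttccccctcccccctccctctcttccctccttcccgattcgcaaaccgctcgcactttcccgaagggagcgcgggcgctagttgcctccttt
Bcl11b: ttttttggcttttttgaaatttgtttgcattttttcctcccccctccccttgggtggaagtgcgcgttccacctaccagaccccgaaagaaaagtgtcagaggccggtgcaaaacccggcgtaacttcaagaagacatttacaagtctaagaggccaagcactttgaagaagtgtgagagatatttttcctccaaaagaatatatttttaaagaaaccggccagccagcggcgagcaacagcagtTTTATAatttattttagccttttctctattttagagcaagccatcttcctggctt
Cntn6: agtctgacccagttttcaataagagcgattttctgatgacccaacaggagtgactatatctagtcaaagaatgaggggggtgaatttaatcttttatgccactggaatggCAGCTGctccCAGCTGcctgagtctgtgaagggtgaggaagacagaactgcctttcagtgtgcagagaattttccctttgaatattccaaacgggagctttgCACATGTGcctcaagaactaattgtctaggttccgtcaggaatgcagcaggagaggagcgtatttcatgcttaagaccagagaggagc
The Fezf2 window holds 1 GC box, 85 bases before the start, and its GC content is 61.3%. The Bcl11b window holds the TATA-box letters on the opposite strand, 5 bases before the start, at a GC content of 43.0%. Cntn6 has 4 E-boxes, at 140, 130, 38 and 36 bases before the start, the last pair overlapping, at a GC content of 46.3%. Of 32851 RefSeq windows of the same length, 35.7% held a GC box, 13.6% a TATA box, 37.4% a CCAAT box and 72.3% an E-box, and the mean GC content was 53.8%. The 3 windows share none of these motifs.

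The arrays of a group correlated at 0.942 to 0.993 over the 10295 genes tested, and array medians ran from 3.26 to 3.50 (log2), with CtrlGFP 24 h replicate 1 highest and CtrlGFP 48 h replicate 2 next. As a check of the cell labels, markers of radial glia (7 or 8 of 8 genes, depending on the group), intermediate progenitors (4 of 4) and new cortical neurons (6 of 6) were above the dim level on all arrays of a group. Markers of meninges (4 of 4), endothelium (4 of 5) and microglia (5 of 6) were below the dim level on every array. The embryonic globin gene Hbb-y stood at 13.78 on CtrlGFP 24 h replicate 1 and at 9.96 on Fezf2GFP 24 h replicate 3, against 3.04 to 5.78 elsewhere. In such sorted bulk samples, fewer cells of a type and less RNA per cell cannot be told apart.

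Fezf2, the gene on the vector, was measured by 1 probe set (1418790_at), and its level ran opposite to the label. At 24 h its log2 values were 10.82, 11.54 and 11.54 in the arrays labelled CtrlGFP and 9.31, 9.50 and 9.52 in those labelled Fezf2GFP. At 48 h they were 10.65, 9.63, 10.44 and 9.87 with CtrlGFP and 10.25, 8.67, 8.93 and 9.48 with Fezf2GFP. The groups did not overlap at 24 h and overlapped at 48 h, where Fezf2GFP replicate 1 lay among the controls. The mean was 11.30 ± 0.42 (SD, n = 3) against 9.44 ± 0.11 (SD, n = 3) at 24 h. Fezf2 fell by 1.86 on the log2 scale there (SE 0.38), a 3.62-fold lower level (limma adjusted p = 0.0324 over all genes tested, the threshold being 0.05). At 48 h the difference was -0.82 (SE 0.33, limma adjusted p = 0.239), and the difference between the effects at both times was 1.04 (SE 0.50, limma adjusted p = 0.998).

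The labels do not say which stretch of Fezf2 was cloned into the plasmid, and the position of the probe set within it is unknown here, so these values do not check the labels. All directions below therefore rest on the labels Fezf2GFP and CtrlGFP as given. The call at 24 h was lost without CtrlGFP 24 h replicate 2 or 3 and without any 1 of the 3 Fezf2GFP 24 h arrays, with limma adjusted p from 0.0929 to 0.157, while the difference stayed between -1.89 and -1.74. With the CtrlGFP vector Fezf2 was lower at 48 h than at 24 h by -1.15 (SE 0.35), without overlap, and just missed the threshold (limma adjusted p = 0.0503). It passed without CtrlGFP 24 h replicate 1, CtrlGFP 48 h replicate 1, or Fezf2GFP 48 h replicate 1 or 2 (limma adjusted p 0.0193 to 0.0440).

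**Figure D1:**
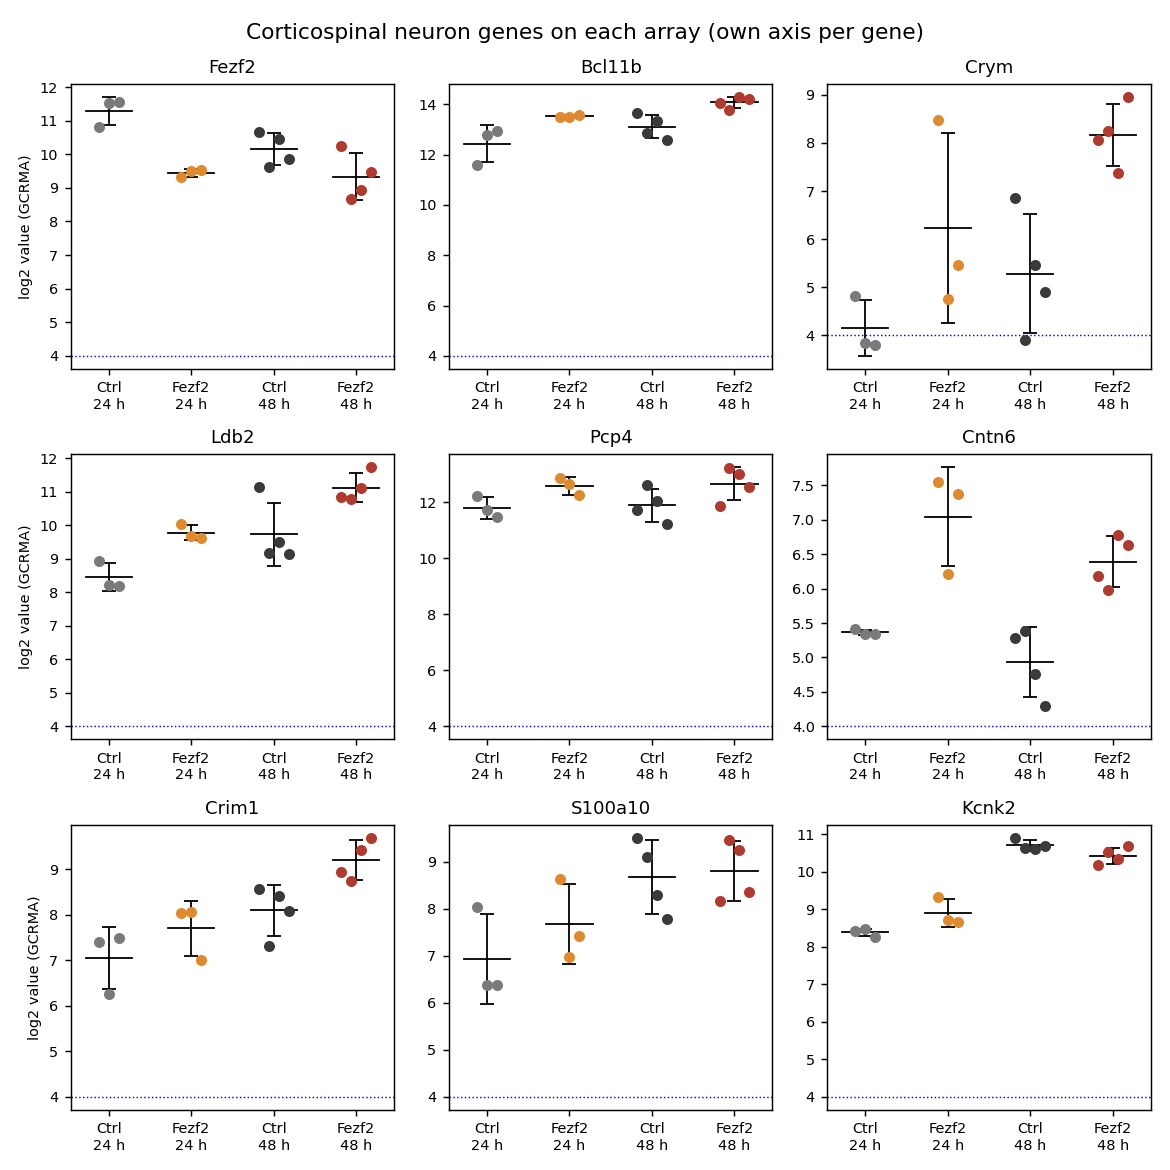
Log2 GCRMA values of the 9 genes on each of the 14 arrays, 1 point per array, by vector and time; lines are group means, bars are SD (n = 3 at 24 h, n = 4 at 48 h), the dotted line is the dim level of 4 and each gene has its own axis. Fezf2 is lowest with Fezf2GFP, Cntn6 is higher with Fezf2GFP on all arrays of both times, and Kcnk2 separates by time.

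Of the 9 genes tested, 8 lay above 0 in the 24 h difference between vectors, and 1 (Cntn6) passed as higher and 1 (Fezf2) as lower, against 1.06% of all genes passing in either direction. At 48 h 7 lay above 0 and 1 passed, Cntn6, against 3.13% of all genes. The median difference of the 9 genes was 0.78 at 24 h and 0.97 at 48 h, beside 0.06 and 0.06 for all genes tested. The arrays of both vectors did not overlap for 6 of the 9 at 24 h, against 19.6% of all genes, and for 4 of the 9 at 48 h, against 9.07%. Because the genes were chosen with earlier results of these data known, these medians and shares are a description and no independent test. None of the 9 passed in the difference between the 24 h and 48 h effects (limma, 0.0971% of all genes did), where the only member with an unadjusted p under 0.05 was Kcnk2. Across genes the vector difference also rose with the genomic span of the gene (Spearman's rho 0.27 at 24 h and 0.28 at 48 h over genes, which are not independent replicates), and with that trend removed 0 of the 9 passed at either time. The differences after removal were -1.74 for Fezf2 and 1.42 for Cntn6 at 24 h (limma adjusted p = 0.0724 and 0.148), and 1.20 for Cntn6 at 48 h (0.0868).

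Bcl11b, the factor that acts downstream of Fezf2 in corticospinal neurons, has 4 probe sets, and the brightest of them (1435227_at) stands for the gene. At 24 h its log2 values were 11.58, 12.78 and 12.94 with CtrlGFP and 13.48, 13.50 and 13.57 with Fezf2GFP. At 48 h they were 13.64, 12.87, 13.32 and 12.59 with CtrlGFP and 14.04, 13.78, 14.29 and 14.21 with Fezf2GFP. Every Fezf2GFP array was above every control of its time. The difference was 1.08 (SE 0.34) at 24 h and 0.97 (SE 0.29) at 48 h, and neither passed (limma adjusted p = 0.215 and 0.0986). At 24 h CtrlGFP replicate 1 lay well below the other controls, and without it the 24 h difference was 0.65 (limma adjusted p = 0.655), while the 48 h difference of 0.97 passed (0.0255).

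A second Bcl11b probe set (1450339_a_at) varied less between arrays. It read 10.87, 11.12 and 11.09 with CtrlGFP and 12.21, 11.79 and 12.07 with Fezf2GFP at 24 h. The 48 h arrays read 11.58, 11.95, 11.54 and 11.08 with CtrlGFP and 13.41, 12.85, 13.23 and 13.58 with Fezf2GFP. The 48 h groups were far apart, at 11.54 ± 0.36 (SD, n = 4) and 13.27 ± 0.31 (SD, n = 4). In a fit over all 17407 probe sets above the dim level this probe set rose by 1.73 (SE 0.21) at 48 h (limma adjusted p = 0.000754), where 2.06% of probe sets passed. It passed under all 26 alternatives that kept the probe sets apart, with a difference of 1.58 to 1.87. At 24 h its difference was 1.00 (SE 0.24, limma adjusted p = 0.0979 in that fit, in which 0.695% of probe sets passed).

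Neither of the remaining 2 Bcl11b probe sets passed in the fit over probe sets, though both had a positive difference. For 1452966_at the difference was 1.38 at 24 h and 1.42 at 48 h (limma adjusted p = 0.467 and 0.145). For 1438784_at it was 1.61 and 1.53 (limma adjusted p = 0.475 and 0.192). For these and for 1435227_at, CtrlGFP 24 h replicate 1 was the lowest array, at 8.73 for 1452966_at and 5.0 for 1438784_at. That array also had the highest Hbb-y, and the part of that in these values was not tested. With all probe sets of Bcl11b averaged the 48 h rise passed (1.41, limma adjusted p = 0.0322), so the call for the gene at 48 h depends on the probe set taken.

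**Figure D2:**
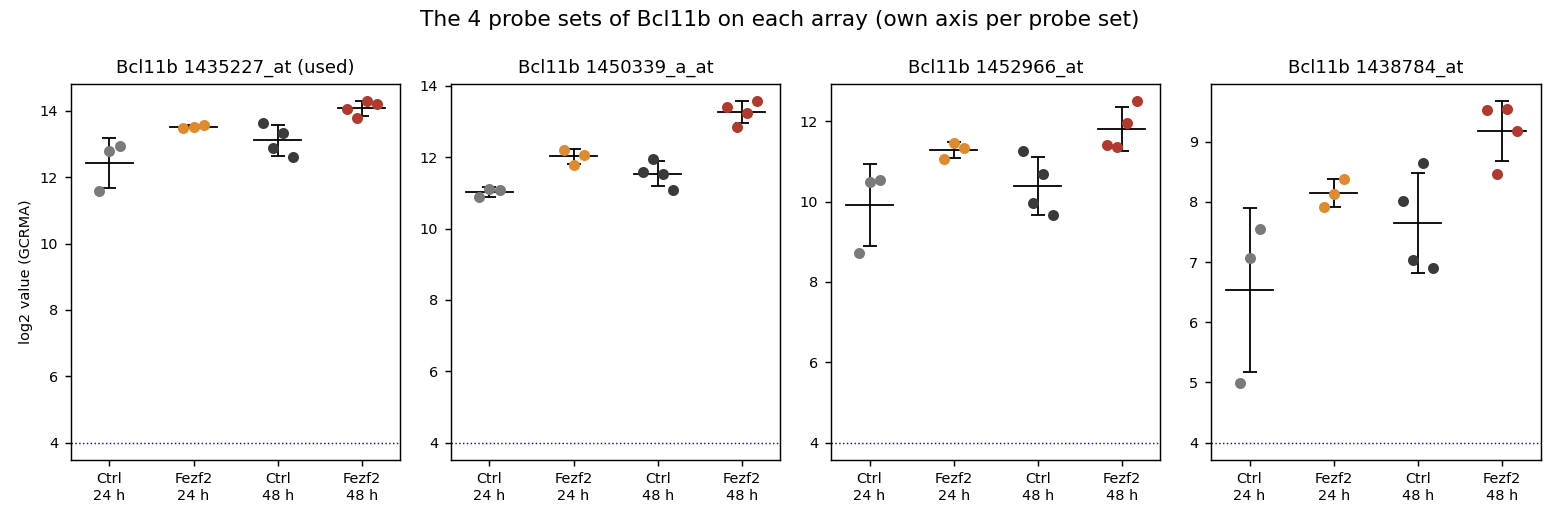
Log2 GCRMA values of the 4 Bcl11b probe sets on each array, with group means and SD; the dotted line is the dim level and each probe set has its own axis. The Fezf2GFP arrays lie above the controls of their time for 1435227_at, 1450339_a_at and 1452966_at, and for 1438784_at at 24 h only. The 48 h gap is widest relative to the spread for 1450339_a_at.

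Ldb2 encodes a cofactor that bridges LIM-domain transcription factors. Its brightest probe set (1439557_s_at) read 8.95, 8.22 and 8.19 with CtrlGFP and 10.03, 9.69 and 9.63 with Fezf2GFP at 24 h. At 48 h the values were 11.13, 9.18, 9.50 and 9.14 with CtrlGFP and 10.84, 10.79, 11.12 and 11.74 with Fezf2GFP. CtrlGFP 48 h replicate 1 lay among the Fezf2GFP arrays, and the other 3 controls lay below all of them. The difference was 1.33 (SE 0.45) at 24 h and 1.38 (SE 0.39) at 48 h, and neither passed (limma adjusted p = 0.292 and 0.0799). Without CtrlGFP 48 h replicate 1 the 48 h difference was 1.85 (limma adjusted p = 0.00257) and the 24 h difference of 1.33 passed too (0.0434). The other 2 Ldb2 probe sets did not pass. For 1456786_at the difference was 1.69 at 24 h and 1.51 at 48 h. For 1421101_a_at it was 1.97 at 48 h, and at 24 h its CtrlGFP arrays lay near or under the dim level (3.83, 3.31 and 4.15) and its Fezf2GFP arrays at 5.63, 5.49 and 7.23, so that the size of that difference is not firm.

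Crym encodes a thyroid hormone-binding protein of the cytoplasm and marks corticospinal neurons of layer V. Its single probe set (1416776_at) read 4.82, 3.84 and 3.79 with CtrlGFP at 24 h, near or under the dim level, and 8.47, 4.76 and 5.45 with Fezf2GFP. At the later time it read 6.86, 3.9, 5.46 and 4.90 with CtrlGFP and 8.07, 8.24, 7.38 and 8.97 with Fezf2GFP. At 24 h Fezf2GFP replicate 2 lay within the controls, and at 48 h the groups did not overlap. The difference was 2.08 (SE 0.87) at 24 h, with a 95% confidence interval of 0.20 to 3.95 before adjustment and a limma adjusted p of 0.476, and it was 0.95 without Fezf2GFP 24 h replicate 1 (limma adjusted p = 0.864). The 48 h difference was 2.88 (SE 0.75, interval 1.26 to 4.51), the largest of the 9 genes, and it missed the threshold (limma adjusted p = 0.0570). Leaving out CtrlGFP 48 h replicate 1 or Fezf2GFP 24 h replicate 1, the highest arrays of their groups, brought the 48 h difference past it (3.41 and 2.88, limma adjusted p = 0.0326 and 0.0136).

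Pcp4, a small calmodulin-binding protein, was bright on all arrays (11.21 to 13.22). At 24 h it stood at 12.24, 11.71 and 11.46 with CtrlGFP and at 12.86, 12.66 and 12.25 with Fezf2GFP, the nearest arrays differing only in the second decimal. The 48 h arrays stood at 11.72, 12.63, 12.03 and 11.21 with CtrlGFP and at 11.87, 13.22, 13.0 and 12.56 with Fezf2GFP, and the groups overlapped. The difference was 0.78 (SE 0.39, 95% interval -0.05 to 1.62) and 0.76 (SE 0.33, interval 0.04 to 1.49), and neither passed (limma adjusted p = 0.616 and 0.292).

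S100a10, an S100-family protein that binds annexin A2, showed the widest spread relative to its difference. Its brightest probe set (1456642_x_at) read 8.03, 6.38 and 6.37 with CtrlGFP and 8.63, 6.98 and 7.42 with Fezf2GFP at 24 h. The later arrays read 9.51, 9.11, 8.29 and 7.78 with CtrlGFP and 8.16, 9.45, 9.25 and 8.36 with Fezf2GFP. The vectors overlapped at both times. The difference was 0.75 (SE 0.58, 95% interval -0.51 to 2.01) at 24 h and 0.13 (SE 0.51, interval -0.96 to 1.23) at 48 h, with limma adjusted p of 0.723 and 0.938. Leaving out 1 array moved the 24 h value to 1.30 (CtrlGFP 24 h replicate 1), 0.48 (CtrlGFP 24 h replicate 2), 0.47 (CtrlGFP 24 h replicate 3) or 0.27 (Fezf2GFP 24 h replicate 1), and the 48 h value took either sign. A second probe set (1416762_at) lay between 2.95 and 5.60, and the dimmest (1439348_at) was below the dim level on all arrays and was not tested.

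Cntn6 encodes contactin 6, a membrane-anchored adhesion protein of the immunoglobulin superfamily, and was the one member that passed as higher with Fezf2GFP at both times. Its single probe set (1422649_at) read 5.41, 5.34 and 5.35 with CtrlGFP and 7.55, 6.22 and 7.37 with Fezf2GFP at 24 h. In the 48 h arrays it read 5.28, 5.39, 4.76 and 4.29 with CtrlGFP and 6.18, 5.98, 6.78 and 6.63 with Fezf2GFP. No Fezf2GFP array reached down to a control array. Cntn6 rose by 1.68 (SE 0.36) at 24 h, a 3.20-fold higher level, and by 1.46 (SE 0.31) at 48 h, a 2.75-fold higher level (limma adjusted p = 0.0440 and 0.0229). In the fit over probe sets the 24 h rise missed the threshold (limma adjusted p = 0.0632) and the 48 h rise passed (0.0322).

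The Cntn6 calls stood near the threshold. At 24 h the rise passed in 8 of 28 alternatives, with a difference of 1.13 to 2.09 and limma adjusted p of 0.00413 to 0.264. Of the 14 arrays, it held only when Fezf2GFP 24 h replicate 2, CtrlGFP 48 h replicate 2 or CtrlGFP 48 h replicate 4 was the one left out. The 48 h rise passed in 21 of 28, with a difference of 1.20 to 1.61, and was lost without CtrlGFP 48 h replicate 3 or 4 or Fezf2GFP 48 h replicate 3 or 4 (limma adjusted p 0.0644 to 0.0733).

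Crim1, a transmembrane protein with cysteine-rich repeats that binds bone morphogenetic proteins, has 2 probe sets. The brighter one (1452253_at) read 7.39, 6.25 and 7.5 with CtrlGFP and 8.04, 8.06 and 6.99 with Fezf2GFP at 24 h. At 48 h it read 8.56, 7.31, 8.41 and 8.08 with CtrlGFP and 8.94, 8.73, 9.41 and 9.69 with Fezf2GFP. The vectors overlapped at 24 h through Fezf2GFP replicate 3 and did not overlap at 48 h. The difference was 0.65 (SE 0.42) and 1.10 (SE 0.37), and neither passed (limma adjusted p = 0.697 and 0.144). Single arrays moved the 24 h value, to 0.25 without CtrlGFP 24 h replicate 2 and to 1.00 without Fezf2GFP 24 h replicate 3. For the second probe set (1426951_at) it was 1.20 at 24 h and 1.96 (SE 0.48) at 48 h, and neither passed in the fit over probe sets (limma adjusted p = 0.658 and 0.0574).

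Kcnk2 encodes a background potassium channel that opens on membrane stretch. It read 8.41, 8.46 and 8.26 with CtrlGFP and 9.33, 8.72 and 8.66 with Fezf2GFP at 24 h, without overlap. At 48 h it read 10.91, 10.62, 10.59 and 10.68 with CtrlGFP and 10.17, 10.52, 10.33 and 10.67 with Fezf2GFP, where the groups overlapped. The vector difference was 0.52 (SE 0.20) at 24 h and -0.28 (SE 0.17) at 48 h, and neither passed (limma adjusted p = 0.406 and 0.511). Without Fezf2GFP 24 h replicate 1 the 24 h difference was 0.31 (limma adjusted p = 0.864). The difference between these 2 effects was -0.80 (SE 0.26), with an unadjusted p of 0.00990 and a limma adjusted p of 0.769.

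**Figure D3:**
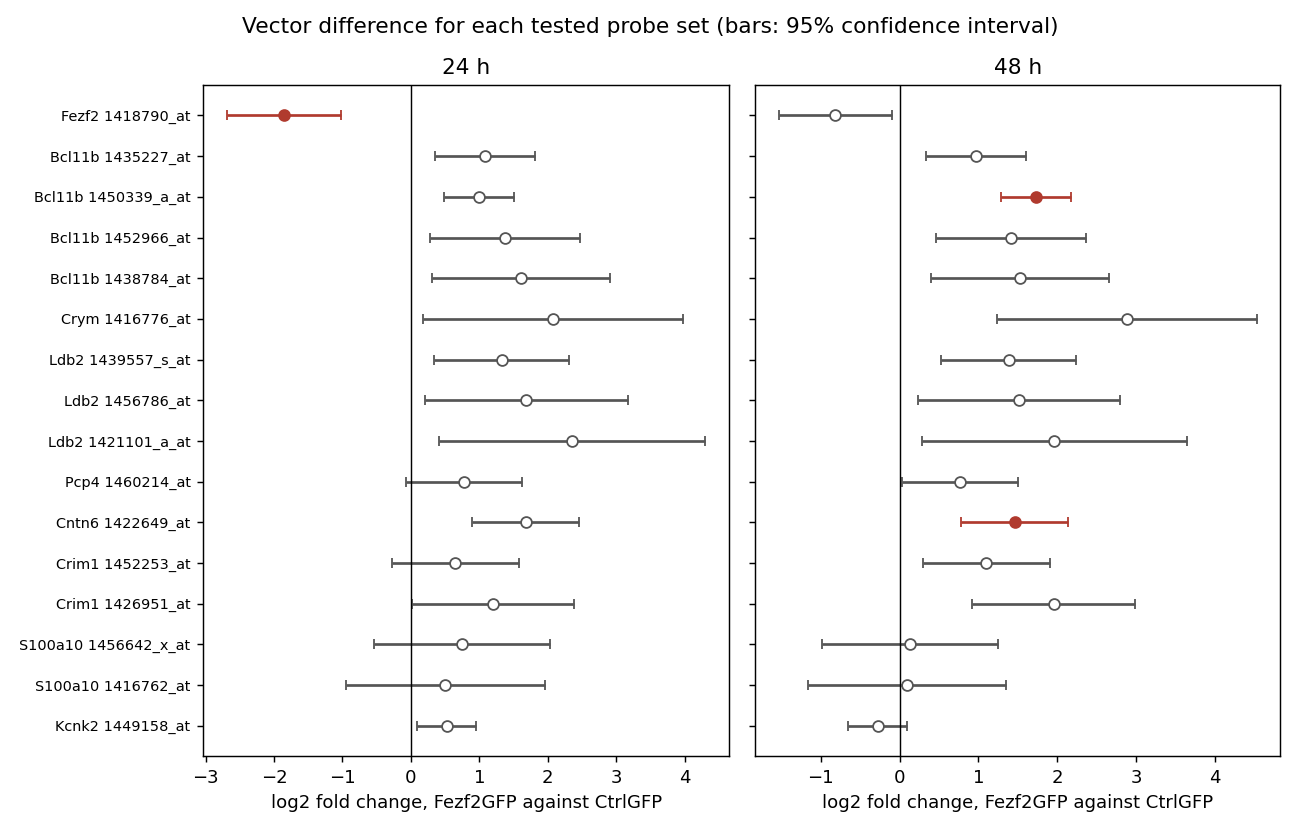
Log2 fold change of Fezf2GFP against CtrlGFP at 24 h (left) and 48 h (right) for each of the 16 tested probe sets, with 95% confidence intervals before adjustment; filled red points passed in the limma fit over all probe sets. At 24 h 15 of the 16 lie above 0 and at 48 h 14 do; Fezf2 at 24 h, and Bcl11b 1450339_a_at and Cntn6 at 48 h, passed.

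The probe sets of a gene pointed the same way in both vector comparisons for each of the 4 genes with several tested probe sets (Bcl11b, Ldb2, Crim1 and S100a10). With the scaling alternatives tried (quantile normalization and 2 kinds of median centring), no member changed the sign of its vector difference.

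Between 24 h and 48 h the clearest change among the 9 genes was that of Kcnk2, whose arrays at the later time all lay above those at the earlier time with either vector. It rose by 2.32 (SE 0.19) with CtrlGFP, a 4.99-fold higher level, and by 1.52 (SE 0.19) with Fezf2GFP, 2.87-fold (limma adjusted p = 2.14e-05 and 0.000382). Both rises passed in all 28 alternatives. These comparisons share their arrays with the vector comparisons. Cell-type markers differed between the times too, where 12.6% of all genes passed with CtrlGFP and 12.1% with Fezf2GFP, in either direction. The 4 markers of intermediate progenitors all lay below 0 with either vector, and 4 passed as lower with CtrlGFP and 3 with Fezf2GFP (limma). The 8 of radial glia all lay below 0, with medians of -0.86 and -0.54, of which 2 passed with CtrlGFP and 0 with Fezf2GFP. Of 4 oligodendrocyte-lineage markers only Olig1 and Olig2 were tested. Both passed as higher with CtrlGFP and 0 with Fezf2GFP, and both lay above 0 with either vector, with medians of 3.23 and 1.32. The other markers did not rise with CtrlGFP. Sox10 was below the dim level on every array. Pdgfra read 4.95, 3.82 and 3.73 at 24 h and 3.65, 4.39, 3.66 and 3.62 at 48 h with CtrlGFP. Of the 6 markers of new neurons 1 passed as higher with each vector, and 5 lay above 0 with CtrlGFP and 6 with Fezf2GFP. The part of all these markers in the time differences of the 9 genes was not tested.

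Kcnk2 was the only 1 of the 9 to pass with CtrlGFP, where 12.6% of all genes passed, and the median difference was 1.04 beside -0.02 for all genes. With Fezf2GFP Crim1 passed too (1.5, SE 0.40, limma adjusted p = 0.0257, without overlap), against 12.1% of all genes, and the median was 1.13 beside -0.01. In the fit over probe sets, where 8.76% passed, 4 of the 16 rose with Fezf2GFP. They were both of Crim1 (2.21, SE 0.51, for 1426951_at, limma adjusted p = 0.0174, and 0.0352 for the other), Bcl11b 1450339_a_at (1.24, SE 0.22, limma adjusted p = 0.00436) and Kcnk2. The Crim1 rise was lost without Fezf2GFP 24 h replicate 3 or Fezf2GFP 48 h replicate 3 or 4 (limma adjusted p 0.0576 to 0.143).

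Ldb2 (1439557_s_at) stood higher at 48 h with both vectors, by 1.28 (SE 0.42) with CtrlGFP and 1.34 (SE 0.42) with Fezf2GFP, without overlap between times, and did not pass (limma adjusted p = 0.0660 and 0.0574). Its other probe sets did not pass in the fit over probe sets. The times overlapped with both vectors for 1456786_at (1.31 and 1.13), and with Fezf2GFP for 1421101_a_at (2.51 and 2.13). S100a10 differed by 1.75 (SE 0.55) with CtrlGFP and 1.13 (SE 0.55) with Fezf2GFP (limma adjusted p = 0.0539 and 0.229). Its dimmer tested probe set (1416762_at) differed by 0.95 and 0.54 (limma adjusted p = 0.446 and 0.707 in the fit over probe sets). Crym differed by 1.13 and 1.93 (limma adjusted p = 0.461 and 0.157), and Bcl11b by 0.67 and 0.56 (0.212 and 0.305). Single arrays decided several of these: Ldb2 passed without CtrlGFP 48 h replicate 2 with either vector (limma adjusted p = 0.0448 and 0.0494), and with Fezf2GFP also without CtrlGFP 48 h replicate 1 (0.00613). S100a10 passed with CtrlGFP without CtrlGFP 24 h replicate 1, Fezf2GFP 24 h replicate 1 or CtrlGFP 48 h replicate 4 (limma adjusted p 0.0209 to 0.0448). Crym passed with Fezf2GFP without Fezf2GFP 24 h replicate 1 (3.06, limma adjusted p = 0.0126), and Crim1 with CtrlGFP without CtrlGFP 48 h replicate 2 (1.30, 0.0405). Other arrays lowered the time difference with CtrlGFP. Bcl11b was 0.25 without CtrlGFP 24 h replicate 1, Crim1 was 0.65 without CtrlGFP 24 h replicate 2, and without CtrlGFP 48 h replicate 1 Ldb2 was 0.82 and Crym 0.60. Pcp4 and Cntn6 showed no difference past the threshold, with 95% intervals of -0.69 to 0.87 and -0.71 to 0.86 for Pcp4 and of -1.16 to 0.29 and -1.38 to 0.07 for Cntn6.

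Markers of GABAergic neurons moved with several of these genes across arrays. The summed level of 6 such markers (Gad1, Gad2, Dlx1, Dlx2, Dlx5 and Lhx6; log2 of the sum) was 7.29, 7.04 and 7.0 with CtrlGFP at 24 h and 10.64, 6.90 and 8.84 with Fezf2GFP. At 48 h it was 10.42, 8.30, 8.95 and 7.62 with CtrlGFP and 9.24, 9.34, 10.29 and 9.32 with Fezf2GFP. None of the 6 markers passed in either vector comparison (limma), and all 6 were above the dim level on all arrays only with Fezf2GFP at 48 h. In CtrlGFP 24 h, Fezf2GFP 24 h and CtrlGFP 48 h the highest array (replicate 1 in each) was also the highest of its group for Crym and Ldb2. In Fezf2GFP 48 h it was not. The highest sum there, that of replicate 3 (10.29), went with the lowest Crym of the group (7.38). Its Ldb2 (11.12) lay below that of replicate 4 (11.74). In CtrlGFP 24 h the order of the sums rested on Gad1 alone (6.2 on replicate 1, against 4.8 and 4.7). On that replicate Dlx1 (2.6, against 3.4 and 3.7) and Dlx2 (5.1, against 5.5 and 5.7) were the lowest of the group. Gad2, Dlx5 and Lhx6 lay between the other arrays there.

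Fezf2GFP 24 h replicate 2, with the lowest GABAergic sum of all arrays, read 4.76 for Crym, inside the control range. The same array read 13.50 for Bcl11b, 9.69 for Ldb2 and 6.22 for Cntn6, each above all 3 CtrlGFP 24 h arrays. With the marker sum as a covariate, an alternative added after these values were seen, the 24 h difference was 0.68 for Crym, 1.13 for Cntn6 (limma adjusted p = 0.264) and -1.93 for Fezf2 (limma adjusted p = 0.144). It was 0.77 for Ldb2 and 0.86 for Bcl11b (limma adjusted p = 0.898 for both), and 0 of the 9 genes passed. For 48 h it was 2.28 for Crym (limma adjusted p = 0.0502) and 1.22 for Cntn6 (0.0203, passing), and Bcl11b 1450339_a_at rose by 1.66 (0.00236).

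Of 5 markers of Cajal-Retzius cells 2 were tested (Reln and Calb2), and 1 of them passed as higher with Fezf2GFP at 48 h (limma). In that comparison 3.13% of all genes passed in either direction. The genes Trp73, Lhx5 and Lhx1 were below the dim level on every array, Reln was above it on every array, and Calb2 was above it only with Fezf2GFP at 48 h (5.64 to 8.52, against 2.31 to 3.59 elsewhere). Calb2 thus entered the test only through the group in which it was high, so a call for it there is no independent result. The summed level of the 5 was 6.98 to 9.85 with CtrlGFP and 10.77 to 11.73 with Fezf2GFP at 48 h, and 7.81 to 10.26 and 9.97 to 10.82 at 24 h. That sum was mostly Reln, which alone read 6.70 to 9.80 with CtrlGFP and 10.70 to 11.56 with Fezf2GFP at 48 h. The 6 markers of new cortical neurons summed to 16.26 to 16.54 with CtrlGFP and 16.43 to 16.77 with Fezf2GFP at 48 h, and those of the oligodendrocyte lineage, with Sox10 below the dim level throughout, to 7.13 to 9.73 and 6.87 to 7.77. The part of these markers in the results for the 9 genes was not tested.

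**Figure D4:**
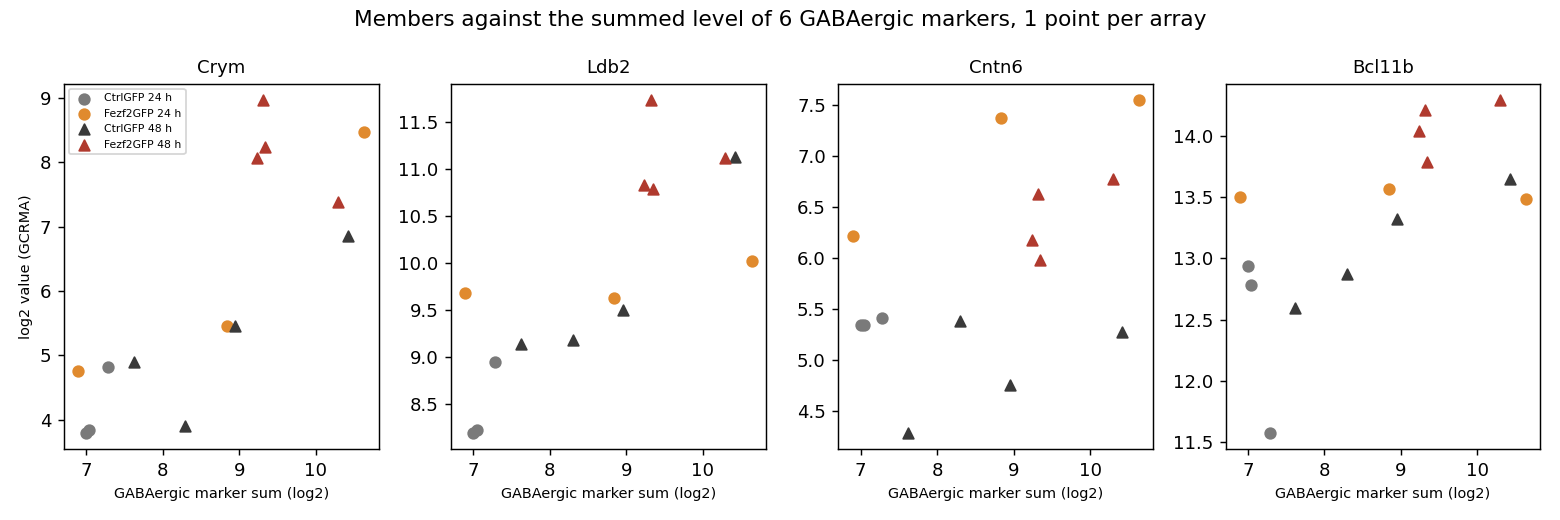
Log2 GCRMA values of Crym, Ldb2, Cntn6 and Bcl11b (vertical axes) against the log2 of the summed level of 6 GABAergic markers (horizontal axis), 1 point per array, by vector and time. Fezf2GFP 24 h replicate 2, at a sum of 6.90, lies with the controls for Crym and above the CtrlGFP 24 h arrays for the other 3 genes.

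Other genes of the same neurons and of their regulation were taken from 3 lists that do not hold the 9 genes, also drawn up with earlier results known. Of 18 other genes of subcerebral and layer V neurons 11 were tested. None passed at 24 h (limma; Tox 0.73, adjusted p = 0.606, and Lix1 -0.80, adjusted p = 0.693, had the smallest p). At 48 h 1 passed as higher and 1 as lower, against 3.13% of all genes in either direction. Ephb1, a receptor for ephrins that guides axons, stood at 9.38 ± 0.48 (SD, n = 4) with CtrlGFP and at 11.00 ± 0.14 (SD, n = 4) with Fezf2GFP, a rise of 1.62 (SE 0.35, limma adjusted p = 0.0256). Bcl6, a transcriptional repressor that promotes neurogenesis, stood at 9.97 ± 0.32 (SD, n = 4) and 8.57 ± 0.46 (SD, n = 4), and fell by 1.40 (SE 0.27, limma adjusted p = 0.0139). The list's median was 0.02 at 24 h and 0.08 at 48 h, near those of all genes.

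Bcl6 passed in all 27 alternatives in which it was tested, with a difference of -1.52 to -0.71, and Ephb1 in 20 of 28. Leaving out any 1 of CtrlGFP 48 h replicates 2, 3 and 4 or Fezf2GFP 48 h replicates 2, 3 and 4 ended the Ephb1 call at 48 h (limma adjusted p 0.0627 to 0.0804). Over time both rose with either vector. Bcl6 rose by 3.32 with CtrlGFP and 1.81 with Fezf2GFP (limma adjusted p = 3.64e-05 and 0.00174), and Ephb1 by 1.46 and 2.58 (0.0232 and 0.00103). Nectin3, an adhesion protein, fell by 1.60 and by 1.37 (limma adjusted p = 0.00872 and 0.0226), and Grb14, an adaptor of the insulin receptor, fell by 0.80 with Fezf2GFP (0.0367). The Nectin3 falls depended on the probe set. With the second brightest they were -0.61 and -0.84 and did not pass (limma adjusted p = 0.547 and 0.354). With the mean of all probe sets the CtrlGFP value was -0.43 (limma adjusted p = 0.257). With Fezf2GFP the Nectin3 fall was lost without Fezf2GFP 24 h replicate 1 or 2 or Fezf2GFP 48 h replicate 1 or 3 (limma adjusted p 0.0599 to 0.0891), and the Grb14 fall without any 1 of the Fezf2GFP arrays except 48 h replicate 4 (0.0709 to 0.132). The Ephb1 rise with CtrlGFP was lost without CtrlGFP 24 h replicate 2 or 3 or CtrlGFP 48 h replicate 1 (0.0656 to 0.0930).

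Of 17 regulators and repressors of the Fezf2 and Bcl11b programme, among them Tbr1, Sox5 and the Tle corepressors, 16 were tested. None passed at 24 h (limma; Tle4 1.24, adjusted p = 0.237, and Zfpm2 1.86, adjusted p = 0.608, had the smallest p), with a median of 0.31. At 48 h 1 passed as higher, against 3.13% of all genes in either direction, and the median was 0.45. It was Tle2, which went from 3.27 ± 0.29 (SD, n = 4) to 4.42 ± 0.51 (SD, n = 4), a difference of 1.15 (SE 0.25, limma adjusted p = 0.0268). Its means were 2.34 with CtrlGFP 24 h, 2.81 with Fezf2GFP 24 h and 3.27 with CtrlGFP 48 h, all under the dim level. Tle2 thus entered the test only through the Fezf2GFP 48 h arrays, the group in which it was called high. Its call is therefore no independent result, and the size of that difference has no firm base. The difference passed in 17 of 27 alternatives. Tle2 was lost without CtrlGFP 48 h replicate 2 or 3 or Fezf2GFP 48 h replicate 1, 3 or 4 (limma adjusted p 0.0658 to 0.0743). Over time Tle2 (0.93 with CtrlGFP, 1.61 with Fezf2GFP; limma adjusted p = 0.0429 and 0.00249) and, with CtrlGFP, the upper-layer factor Cux2 (1.40, limma adjusted p = 0.00705) rose. The Tle2 rise with Fezf2GFP ended in the group that brought the gene into the test, and that with CtrlGFP lay between means under the dim level. The Tle2 rise with CtrlGFP was lost when any of 9 arrays was left out, among them CtrlGFP 24 h replicates 2 and 3 (limma adjusted p up to 0.169).

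Of 18 paralogs and partners of the 9 genes 12 were tested. None passed at 24 h (limma; Chl1 0.93, adjusted p = 0.155, and Cntn3 1.28, adjusted p = 0.308, had the smallest p), with a median of 0.30. At 48 h 2 passed as higher, against 3.13% of all genes in either direction, and the list's median was 0.47. Lmo3, a LIM-only protein of the kind that Ldb cofactors bind, stood at 7.71 ± 0.71 (SD, n = 4) with CtrlGFP and at 10.17 ± 0.20 (SD, n = 4) with Fezf2GFP, a rise of 2.45 (SE 0.29, limma adjusted p = 0.000481) that passed in all 28 alternatives. Cntn3, a contactin like Cntn6, went from 4.31 ± 0.80 (SD, n = 4) to 6.05 ± 0.72 (SD, n = 4), a rise of 1.75 (SE 0.38, limma adjusted p = 0.0263) that passed in 16 of 27. Cntn3 was lost without CtrlGFP 48 h replicate 2, 3 or 4 or Fezf2GFP 48 h replicate 2 or 4 (limma adjusted p 0.0586 to 0.0870).

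Over time the adhesion proteins Cntn2 (2.59 with CtrlGFP and 1.47 with Fezf2GFP; limma adjusted p = 0.000430 and 0.0129) and Chl1 (1.78 and 1.13; 0.000560 and 0.00947) rose with both vectors. Lmo3 rose with Fezf2GFP (1.59, limma adjusted p = 0.00536), and Anxa2, the partner of S100a10, fell by 1.04 with CtrlGFP (limma adjusted p = 0.0174). Without Fezf2GFP 24 h replicate 3 the Cntn2 and Chl1 rises with Fezf2GFP missed the threshold (limma adjusted p = 0.0729 and 0.0505), as did the Anxa2 fall without CtrlGFP 24 h replicate 1 or 3 (0.0586 and 0.0530). No gene of the 3 lists passed in the difference between the 24 h and 48 h vector effects (limma). The smallest p there were those of Bcl6 (-1.51, adjusted p = 0.442) and Foxo1 (0.93, 0.862), of Cux1 (-1.81, 0.960) and Bcl11a (-0.82, 0.998), and of Lmo3 (2.26, 0.110) and Anxa2 (0.90, 0.960). Lmo3 passed there without CtrlGFP 48 h replicate 1 (2.56, limma adjusted p = 0.0322), with array weights (2.49, 0.00730) and with the GABAergic covariate (2.51, 0.0290).

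The genes whose log2 values followed each of 4 members most closely over the 14 arrays were found by Pearson's r, given as a description because the arrays share 4 group means. For Fezf2 they were Rab8b (r = 0.917), Hdac9 (0.892), 2610318N02Rik (0.871), Enox2 (0.865) and Veph1 (0.838). After each group's mean was subtracted the values were 0.773, 0.577, 0.687, 0.674 and 0.436 in the same order. For Bcl11b they were Tgfa (0.968), Arid5b (0.955) and Cntnap2 (0.942), with 0.935, 0.892 and 0.870 after subtraction. For Crym they were Calb1 (0.964), St6galnac5 (0.941) and Psd (0.940), with 0.903, 0.832 and 0.863. For Cntn6 they were Dapp1 (0.934), Col4a4 (0.932) and Gcg (0.916), with 0.641, 0.739 and 0.521. No member was among these few genes listed for the 4 members, which does not mean that members did not move together. Between members r ran from -0.778 (Fezf2 and Pcp4) to 0.887 (Crym and Ldb2). After subtraction it ran from -0.720 (Fezf2 and Pcp4) to 0.817 (Crym and Kcnk2).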

How the data were processed

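Expression was measured on 14 Affymetrix mouse arrays. Per the labels' protocols, the sorted cells' RNA went through 2 amplifying in vitro transcriptions. The authors' deposited values are on the log2 scale, made with GCRMA per the submitters' processing notes; no version or settings are given there. Scanner files were not used here. Probe sets were named from the platform annotation (34945 of 45037 have exactly 1 symbol).

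The brightest probe set stood for each gene. Genes above a log2 value of 4 on at least 3 arrays (10295) entered 1 linear model with a mean per group (R 4.3.3, limma 3.58.1, lmFit and eBayes, 10 residual degrees of freedom), with Benjamini-Hochberg adjustment over all genes and a threshold of 0.05. A second fit used every probe set. The number of arrays limits the precision. The functions were tested on simulated data. The members and lists were chosen with earlier results of these data known. Listed genes were named where they passed, or else the 2 with the smallest p; genes of like pattern were those with the highest r. Alternatives changed the filter, scaling, probe set, samples, weights, replicate block and span trend.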

Additional observations from a re-analysis of the deposited data

How the results depend on the processing

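Of the 9 genes, 2 passed between vectors at 24 h. The count was 0 with no filter on dim probe sets, with the second brightest probe set, after removal of the span trend and with the GABAergic marker sum as a covariate, 1 with quantile normalization, with either median centring, with only the groups compared and with the 2 control arrays of highest median left out, 7 with array weights, and 0 to 2 when 1 array was left out. At 48 h, where 1 passed, it was 0 with no filter and with the span trend removed, 3 with the mean of all probe sets, 2 with the second brightest probe set and with array weights, and 0 to 3 without 1 array. For the difference between the vector effects it was 0 in all 27 alternatives. With time and CtrlGFP, where 1 passed, it was 3 with a dim level of 6 and with median centring on the genes tested, 2 with quantile normalization, median centring of each array, the mean of probe sets and the span trend removed, 5 with array weights, 4 without the 2 high-median controls, and 1 to 3 without 1 array. With time and Fezf2GFP, where 2 passed, it was 1 with no filter, 5 with array weights and 1 to 3 without 1 array. Ldb2 also passed there with quantile normalization, median centring on the genes tested, only the groups compared, and the 2 high-median controls left out. Bcl11b also passed with the second brightest probe set. With the GABAergic covariate Crim1 missed the threshold and Cntn6 passed as lower (-0.90, limma adjusted p = 0.0445). The number of all genes that passed moved across the alternatives too, with the ranges given below. The cause was not tested.

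Whether replicate numbers pair the arrays was not settled, because only same-numbered arrays were correlated, with no differently numbered arrays set beside them. Deviations of same-numbered arrays correlated at 0.32, 0.22 and -0.01 at 24 h and at -0.06, 0.29, 0.02 and 0.27 at 48 h. With the replicate block the counts were 0 at 24 h, 2 at 48 h (Cntn6 and Crym, adjusted p = 0.0310 for Crym in limma), 0 for the difference, 2 with time and CtrlGFP and 2 with time and Fezf2GFP.

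Directions turned for 4 of the 9 genes, in no value that had passed. S100a10 was -0.087 at 24 h and -0.23 at 48 h with the GABAergic covariate, and from -0.17 to 0.41 at 48 h without 1 array. Over time with CtrlGFP, Crym was -0.30 and Pcp4 -0.059 with that covariate, and Pcp4 ran from -0.15 to 0.32 without 1 array. With Fezf2GFP, Pcp4 ran from -0.11 to 0.34 and Fezf2 from -0.41 to 0.11 without 1 array. Over all genes the number that passed, 109 at 24 h and 322 at 48 h, ran from 22 to 2030 and from 157 to 550, the upper ends being those with array weights. For the difference between the vector effects 10 genes passed, and 0 to 240 in the alternatives. Over time 1294 genes passed with CtrlGFP and 1241 with Fezf2GFP. These numbers ran from 668 to 3077 and from 643 to 3133 in the alternatives. Signal over background limits Crym at 24 h with CtrlGFP, Ldb2 1421101_a_at at 24 h, Tle2 and the dim S100a10 probe sets.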
